A study of Mus musculus with 12 samples.

Results

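A set of 10 extracellular matrix genes, of the 54532 genes in the deposited table, was followed through the colonic RNA-Seq of mice with dextran sulfate sodium (DSS) colitis. They were listed by gene symbol, with earlier results of these data known, and not by a threshold on any value: Fn1, Postn, Thbs1, Sparc and Tnc, which encode adhesive and matricellular glycoproteins, Eln, Fbn1 and Lox of the elastic fibre, and the small leucine-rich proteoglycan genes Dcn and Lum. All 10 genes passed the filter on low counts that left 16904 genes for testing. The tissue came from wild-type male C57BL/6J mice, with 3 libraries in each of 4 groups. Their stated age of 5 weeks is that at purchase in the methods, before acclimation and treatment, so they were older at tissue collection. Control mice were untreated, model mice received DSS, Rhy mice received rhynchophylline and DSS, and DXM mice received dexamethasone and DSS. DSS is a polymer that injures the colonic epithelium when drunk, and the methods of the study give 3% DSS for its acute model. Rhynchophylline is an alkaloid of Uncaria plants, and dexamethasone is a synthetic glucocorticoid, given at 4 mg/kg. Rhynchophylline was given at 2, 4 or 8 mg/kg in the study, and the sources used here do not say which dose the sequenced mice received. The methods name the control, model and Rhy groups for sequencing and do not name the DXM group, which is taken from the sample labels. No genotype or transgene separated the groups, and the model, Rhy and DXM mice all had DSS.

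Fibroblasts and smooth muscle cells secrete most of these proteins. Fibronectin is laid down early in a wound and binds integrins on cells, while the matricellular proteins periostin, thrombospondin-1, SPARC and tenascin-C add little mechanical strength and instead modulate adhesion, growth factor release and collagen assembly. Elastic fibres form when tropoelastin is deposited on fibrillin microfibrils and cross-linked by lysyl oxidase, and the proteoglycans decorin and lumican coat collagen fibrils and govern their thickness and spacing.

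The libraries held 14346478 to 17749716 counted reads. Levels are given as CPM (counts scaled to a common library size), scaled by the trimmed mean of M values (TMM), or as FPKM where genes are compared with each other. Model 1 and model 2 were nearly alike: the common dispersion of this pair, a measure of how far 2 libraries differ beyond counting noise, was 0.00201, against 0.0604 to 0.351 in the other 65 pairs. Whether model 1 and model 2 came from separate mice was not tested, and every n given here counts libraries. Hoxb13, a homeobox gene of the distal colon, was between 0 and 1.49 CPM in control 3, model 3 and Rhy 1 and between 72.0 and 316 CPM in the other 9 libraries. Results that rest on these libraries are therefore also given with model 1 and model 2 counted as 1 library, and without the 3 libraries low in Hoxb13. The labels do not say that numbered samples of a group came from separate experiments, so p-values measure the spread between these samples.

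Of the 10 genes, 8 had a lower mean in the model than in the control group, and all 10 had a higher mean in the Rhy and in the DXM group than in the model group. None passed an adjusted p of 0.05 in any comparison by the quasi-likelihood test of edgeR with Benjamini-Hochberg adjustment over all genes tested, and 0 of the 16904 genes did, so none is described as raised or lowered by a treatment. The largest values stood in the DXM group. Thbs1 had the largest fold over the model group, 4.36, which rested on 1 library, DXM 3, while Eln was at 3.71-fold, Dcn at 3.46-fold, Lum at 3.34-fold, Lox at 3.27-fold and Postn at 3.07-fold. In a bulk sample, fewer cells of a type and less RNA per cell cannot be told apart.

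Upstream sequence is shown for Postn, the gene with the smallest unadjusted p in the DXM comparison with the model group, and for Tnc, the gene whose 4 group means lay closest together. Each window is the 250 bases before a RefSeq start on GRCm38.p6, printed 5′ to 3′ on the strand of the gene, chr3:54360857-54361106 on the plus strand for Postn and chr4:64047016-64047265 on the minus strand for Tnc. Neither window overlaps an annotated exon of its own gene. Capitals mark TATATAA in Postn and GGGCGG in Tnc.
Postn: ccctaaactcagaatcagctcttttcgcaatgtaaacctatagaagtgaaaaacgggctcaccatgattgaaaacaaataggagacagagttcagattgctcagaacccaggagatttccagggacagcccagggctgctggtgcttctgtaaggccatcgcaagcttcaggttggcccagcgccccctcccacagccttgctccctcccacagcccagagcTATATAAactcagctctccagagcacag
Tnc: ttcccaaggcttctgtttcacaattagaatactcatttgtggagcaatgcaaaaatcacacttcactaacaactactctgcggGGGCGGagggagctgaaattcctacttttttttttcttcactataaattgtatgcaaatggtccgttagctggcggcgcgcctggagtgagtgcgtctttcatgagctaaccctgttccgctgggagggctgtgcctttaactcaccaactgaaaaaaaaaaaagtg

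Both strands were searched for the TATA box spelled TATATAA, for the AP-1 site spelled TGANTCA, for the GC box spelled GGGCGG, for the glucocorticoid receptor half-site spelled AGAACA and for the CArG box. No occurrence of one motif overlapped another in the windows shown. In the Postn window TATATAA began 28 bases before the start, and this motif was held by 3.04% of 32851 promoter windows of the same length. In the Tnc window GGGCGG began 167 bases before the start, as a motif held by 32.7% of the promoter windows. Both genes have another RefSeq start, and the motifs differ there. The other Tnc window, chr4:64046937-64047186, which overlaps 79 exon bases of the gene, held TATATAA 29 bases before its start and the same GGGCGG, and the other Postn window, chr3:54359017-54359266, held none of the motifs searched. TGANTCA was in 6.75%, AGAACA in 16.1% and the CArG box in 1.47% of the windows, and these letters were in neither window shown. The promoter table matched 4 of the 10 genes, Postn, Tnc, Fbn1 and Sparc, and the windows of Fbn1 and Sparc, which lie mostly or wholly over their own exons, held GGGCGG once and AGAACA at 2 places.

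Fn1 (ENSMUSG00000026193, GRCm38 chromosome 1, 71585520 to 71653200, minus strand) encodes fibronectin, which carries the integrin-binding adhesion sites of the provisional wound matrix. Its level was 188, 116 and 115 CPM in control 1 to 3 and 145, 146 and 91.5 CPM in model 1 to 3. It was 84.4, 174 and 334 CPM in Rhy 1 to 3 and 212, 145.6 and 363 CPM in DXM 1 to 3. Rhy 1 was the lowest and DXM 3 the highest of the 12 libraries, and the ranges of all groups overlapped. The log2 fold change was -0.13 ± 0.46 (SE) for model against control, 0.63 ± 0.46 for Rhy against model and 0.91 ± 0.46 for DXM against model (edgeR, adjusted p = 0.949, 1.00 and 0.662). Without Rhy 3, the Rhy value was 0.02, and without DXM 3, the DXM value was 0.49.

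Postn (ENSMUSG00000027750, chromosome 3, 54361109 to 54391037, plus strand) encodes periostin, a matricellular protein of fibroblasts that binds integrins and collagen. Control libraries held 105, 121 and 111 CPM and model libraries 110.0, 104 and 89.7 CPM. Rhy libraries held 99.1, 181 and 316 CPM and DXM libraries 309.8, 186 and 437 CPM. Every DXM library was above every control and model library, while Rhy 1 lay within the model range and Rhy 2 and Rhy 3 above it. The mean was 112 ± 7.90 CPM in control, 101 ± 10.4 in model, 199 ± 109 in Rhy and 311 ± 125 in DXM mice (SD, n = 3 each). The log2 fold change of DXM against model was 1.62 ± 0.38 (unadjusted p = 0.00127, edgeR adjusted p = 0.622), and that of Rhy against model was 0.97 ± 0.38 (unadjusted p = 0.0252, adjusted p = 1.00). The model and control groups differed by -0.15 ± 0.38. The exact two-sided permutation test of DXM against model gave p = 0.1, the smallest that 3 against 3 libraries allow.

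Thbs1 (ENSMUSG00000040152, chromosome 2, 118111876 to 118127133, plus strand) encodes thrombospondin-1, which can release active TGF-beta from its latent complex. It was at 41.3, 16.5 and 67.2 CPM in the control, 23.7, 24.6 and 27.1 CPM in the model, 20.5, 41.3 and 75.0 CPM in the Rhy and 20.5, 38.7 and 269.8 CPM in the DXM libraries. DXM 3 stood far above all others, and DXM 1 was below every model library. The largest of the 12 levels was 16.4 times the smallest, the widest span among the 10 genes. DXM against model, at a log2 fold change of 2.13 ± 0.84 (unadjusted p = 0.0264, adjusted p = 0.637), was 0.24 without DXM 3. Against the control group it was 1.40 ± 0.82 with DXM 3 and -0.49 without it. Rhy against model was at 0.86 ± 0.81, and for model against control -0.73 ± 0.81.

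Sparc (ENSMUSG00000018593, chromosome 11, 55394500 to 55423183, minus strand) encodes a collagen-binding matricellular protein needed for orderly collagen deposition. Its level per length was the highest of the 10 genes in every group, with mean FPKM of 65.4 ± 28.8 in control, 53.0 ± 6.48 in model, 67.6 ± 29.8 in Rhy and 87.2 ± 24.9 in DXM mice (SD, n = 3 each). In CPM the control libraries held 371, 168 and 198, the model libraries 223, 221 and 176, the Rhy libraries 128, 307 and 339.6, and the DXM libraries 379, 227 and 407. The DXM libraries lay above the model libraries by a narrow gap, 226.9 against 222.9 CPM, and overlapped the control libraries. On the log2 scale DXM against model was 0.71 ± 0.39 (adjusted p = 0.672), of Rhy against model 0.32 ± 0.39 (adjusted p = 1.00) and of model against control -0.25 ± 0.39 (adjusted p = 0.864).

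Tnc (ENSMUSG00000028364, chromosome 4, 63959785 to 64047015, minus strand) encodes tenascin-C, a matricellular protein that is scarce in resting adult tissue and made at sites of injury. Control libraries held 109, 33.9 and 93.7 CPM, model libraries 64.0, 61.8 and 53.5 CPM, Rhy libraries 42.5, 63.5 and 75.1 CPM, and DXM libraries 55.7, 71.4 and 111 CPM. The control libraries spanned nearly the whole range, and the other 3 groups overlapped within it. The group means were 78.9 ± 39.6 CPM in control, 59.7 ± 5.53 in model, 60.4 ± 16.5 in Rhy and 79.4 ± 28.5 in DXM mice (SD, n = 3 each). No comparison had a log2 fold change past 0.41 in size, the value of DXM against model (SE 0.39, adjusted p = 0.794).

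**Figure D1:**
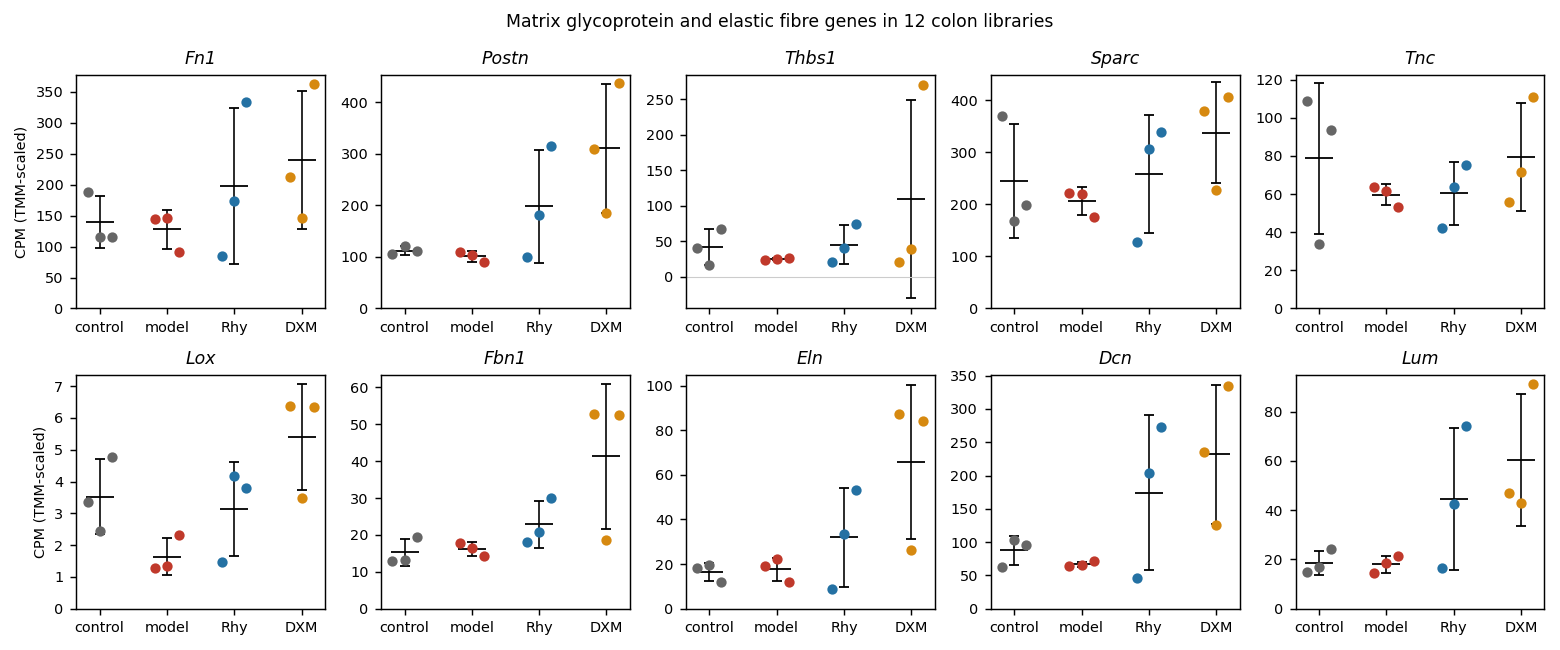
TMM-scaled CPM (vertical axis, linear, a separate scale for each gene) of the 10 genes in mice of each group (control, model, Rhy, DXM). Points are libraries 1 to 3 from left to right, the long bar is the mean and the error bar the SD (n = 3). Rhy 1 sits low and Rhy 3 and DXM 3 sit high in most panels, and a single DXM library carries the DXM mean of Thbs1.

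Eln (ENSMUSG00000029675, chromosome 5, 134702593 to 134747323, minus strand) encodes tropoelastin, the soluble precursor of the elastic core. It was at 18.3, 19.5 and 11.8 CPM in the control and 19.0, 22.1 and 12.0 CPM in the model libraries. The Rhy libraries held 8.90, 33.7 and 53.4 CPM and the DXM libraries 87.1, 26.2 and 84.3 CPM. Every DXM library was above every control and model library, and the Rhy libraries lay on both sides of the model range. The log2 fold change of DXM against model was 1.89 ± 0.58 (unadjusted p = 0.00682, adjusted p = 0.622) and of DXM against control 1.99 ± 0.58 (unadjusted p = 0.00515, adjusted p = 0.135). Rhy against model was at 0.86 ± 0.57, which was 1.30 without Rhy 1 and 0.27 without Rhy 3. Model and control differed by 0.10 ± 0.57.

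Fbn1 (ENSMUSG00000027204, chromosome 2, 125300594 to 125507993, minus strand) encodes fibrillin-1, the main protein of the microfibrils on which elastin is laid. Control libraries held 13.0, 13.4 and 19.5 CPM, model libraries 17.9, 16.6 and 14.2 CPM, Rhy libraries 17.98, 20.7 and 30.1 CPM, and DXM libraries 52.9, 18.6 and 52.4 CPM. It was the only one of the 10 genes with every Rhy library above every model library, by 17.98 against 17.87 CPM at the narrowest point. DXM 2 stood close to the model libraries and well below DXM 1 and DXM 3. In log2 fold change, DXM against model was 1.35 ± 0.36 (unadjusted p = 0.00285, adjusted p = 0.622), of DXM against control 1.43 ± 0.36 (unadjusted p = 0.00194, adjusted p = 0.130) and of Rhy against model 0.50 ± 0.36 (adjusted p = 1.00). A gene on the opposite strand, Gm9913, shares 20.1% of the exon bases of Fbn1, and without a stated use of strand in the counting its reads cannot be told apart from those of Fbn1 there.

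Lox (ENSMUSG00000024529, chromosome 18, 52516069 to 52529867, minus strand) encodes lysyl oxidase, the enzyme that cross-links elastin and collagen. It was the lowest of the 10 genes per length, with a mean FPKM of 0.740 ± 0.247 in control, 0.332 ± 0.122 in model, 0.647 ± 0.303 in Rhy and 1.10 ± 0.339 in DXM mice (SD, n = 3 each), and rested on 17 to 125 reads per library. In CPM it was 3.37, 2.43 and 4.78 in the control, 1.27, 1.33 and 2.32 in the model, 1.46, 4.18 and 3.79 in the Rhy and 6.38, 3.47 and 6.33 in the DXM libraries. Every model library was below every control library and every DXM library, while Rhy 1 was within the model range. Lox was the only gene of the 10 with an unadjusted p under 0.05 for model against control, at a log2 fold change of -1.10 ± 0.47 (unadjusted p = 0.0362, adjusted p = 0.500). DXM against model gave 1.71 ± 0.47 (unadjusted p = 0.00344, adjusted p = 0.622), and Rhy against model 0.94 ± 0.47 (unadjusted p = 0.0669, adjusted p = 1.00). Without the 3 libraries low in Hoxb13 these values were -1.19, 2.06 and 1.64, and with model 1 and model 2 as 1 library they were -0.98, 1.58 and 0.81. The first of these settings kept only model 1 and model 2 in the model group.

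Dcn (ENSMUSG00000019929, chromosome 10, 97479609 to 97518143, plus strand) encodes decorin, a proteoglycan that binds collagen fibrils and can hold TGF-beta. Its level was 63.0, 104 and 96.4 CPM in the control and 64.4, 65.6 and 71.2 CPM in the model libraries. It was 45.8, 205 and 273 CPM in the Rhy and 236, 126 and 335 CPM in the DXM libraries. Every DXM library was above every control and model library, and in the Rhy group Rhy 1 was the lowest of all 12 libraries while Rhy 2 and Rhy 3 were above all model and control libraries. DXM against model was at a log2 fold change of 1.79 ± 0.53 (unadjusted p = 0.00533, adjusted p = 0.622), and of Rhy against model 1.38 ± 0.52 (unadjusted p = 0.0213, adjusted p = 1.00), the largest Rhy value of the 10 genes. Without Rhy 1 the Rhy value was 1.83, and without Rhy 3 it was 0.90.

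Lum (ENSMUSG00000036446, chromosome 10, 97565128 to 97572703, plus strand) encodes lumican, the keratan sulfate proteoglycan of collagen fibrils, and is the next annotated gene after Dcn on the same strand, 46984 bases away with 0 genes between. Control libraries held 14.9, 17.0 and 24.2 CPM, model libraries 14.5, 18.5 and 21.3 CPM, Rhy libraries 16.6, 42.6 and 74.3 CPM, and DXM libraries 47.1, 43.1 and 91.1 CPM. The pattern followed that of Dcn in that every DXM library was above every control and model library. Unlike for Dcn, Rhy 1 lay within the model range. The log2 fold change was 1.74 ± 0.46 for DXM against model (unadjusted p = 0.00283, adjusted p = 0.622), 1.30 ± 0.46 for Rhy against model (unadjusted p = 0.0153, adjusted p = 1.00) and -0.05 ± 0.45 for model against control (adjusted p = 0.980). Lum was the only gene of the 10 with an unadjusted p under 0.05 for Rhy against control, at 1.25 ± 0.46 (unadjusted p = 0.0185, adjusted p = 0.367), and this value was 0.66 without Rhy 3 (unadjusted p = 0.146, edgeR). Over the 12 libraries, Dcn and Lum had a Pearson r of 0.940 in log2 CPM.

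For model against control, which asks what DSS alone did, 1 of the 10 genes had an unadjusted p under 0.05 and did not overlap between the groups, Lox, which was lower. Over all 16904 genes, 4.51% had an unadjusted p under 0.05 and a lower level, 6.61% were lower without overlap, and 9.62% had an unadjusted p under 0.05 in either direction. The mean was lower in model mice for 8 of the 10 genes and for 49.3% of all genes. The median log2 fold change of the 10 genes was -0.20, and that of all genes was 0.01. Counting model 1 and model 2 as 1 library left 0 of the 10 genes at an unadjusted p under 0.05, and leaving out the 3 libraries low in Hoxb13 left 1.

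For Rhy against model, which asks how rhynchophylline altered the colon of DSS mice, 3 of the 10 genes had an unadjusted p under 0.05, Postn, Dcn and Lum, all higher in Rhy mice. The background was 1.74% of all genes higher and 3.72% in either direction. Only 1 gene, Fbn1, was higher without overlap, where 5.51% of all genes were. All 10 genes had a higher mean in Rhy mice, where 48.3% of all genes did, and their median log2 fold change was 0.86 (all genes -0.01). The 3 Rhy libraries differed widely: averaged over the 10 standardized genes, Rhy 1 was the lowest of the 12 libraries and Rhy 3 the second highest. Without Rhy 1 the median was 1.24 and 6 genes had an unadjusted p under 0.05, and without Rhy 3 the median was 0.29 and 0 genes had one. Without the 3 libraries low in Hoxb13, Rhy 1 among them, the median was 1.18 with 4 genes, and with model 1 and model 2 as 1 library it was 0.82 with 2 genes (lowest adjusted p = 0.461 and 1.00). In the first of these settings the model group was model 1 and model 2 alone.

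For DXM against model, 7 of the 10 genes had an unadjusted p under 0.05, Postn, Thbs1, Lox, Fbn1, Eln, Dcn and Lum, all higher in DXM mice, where 4.89% of all genes were higher at that level and 7.69% in either direction. All 10 had a higher mean in DXM mice, as did 48.5% of all genes. Higher without overlap were 7 genes, Postn, Sparc, Lox, Fbn1, Eln, Dcn and Lum, where 10.4% of all genes were. The exact permutation p of each of these 7 was 0.1, the smallest that 3 against 3 libraries allow, with model 1 and model 2 counted separately. The median log2 fold change was 1.66 (all genes -0.01). It stayed between 1.21 and 1.91 when any 1 library of either group was left out, with 6 to 9 genes at an unadjusted p under 0.05. Without the 3 libraries low in Hoxb13 it was 1.63 with 6 genes, and with model 1 and model 2 as 1 library it was 1.62 with 6 genes.

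The number of genes past an adjusted p of 0.05 for DXM against model depended on the tool. It was 0 of the 10 by edgeR and by limma on log2(FPKM + 1), where both called 0 of all genes. DESeq2 called 1, Postn, when fitted on all libraries (adjusted p = 0.0238), where it called 0.32% of the genes to which it gave an adjusted p. Fitted on the 2 groups alone, DESeq2 called 6, Postn, Lox, Fbn1, Eln, Dcn and Lum, where it called 3.98% of such genes. Neither DESeq2 fit was repeated with model 1 and model 2 as 1 library. On simulated counts, made for another comparison, model against control, with 200 of 16904 genes changed 4-fold, DESeq2 on all libraries recovered 153 of the changed genes with 52 false calls and edgeR 124 with 7. The simulation drew every library independently and did not include a DESeq2 fit on 2 groups, so it does not bear on the 6 calls.

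Against untreated mice, 5 of the 10 genes had an unadjusted p under 0.05 for DXM against control, Postn, Fbn1, Eln, Dcn and Lum, all higher, where 8.68% of all genes were higher at that level. Of these, 4, Postn, Eln, Dcn and Lum, were higher without overlap, where 9.77% of all genes were. The lowest adjusted p was 0.130, and the median log2 fold change was 1.40, or 0.76 without DXM 3 (all genes 0.06), and 1.44 with 6 genes without the 3 libraries low in Hoxb13. DESeq2 called 4 genes on all libraries, Postn, Fbn1, Eln and Lum, and 4 on the 2 groups alone, Postn, Eln, Dcn and Lum, where it called 7.99% and 3.59% of the genes to which it gave an adjusted p. For Rhy against control 1 gene, Lum, had an unadjusted p under 0.05 (6.46% of all genes, higher), 0 genes were higher without overlap (7.5% of all genes), and the median was 0.54 (all genes -0.03). This median rested on Rhy 3, without which it was 0.10, with 5 of the 10 genes higher and 0 at an unadjusted p under 0.05. It was 0.80 with 4 genes without Rhy 1, and 0.97 with 4 genes, Postn, Eln, Dcn and Lum, without the 3 libraries low in Hoxb13. The comparisons with the model group share the model libraries, and those with the control group share the control libraries, so their values are not independent of each other.

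**Figure D2:**
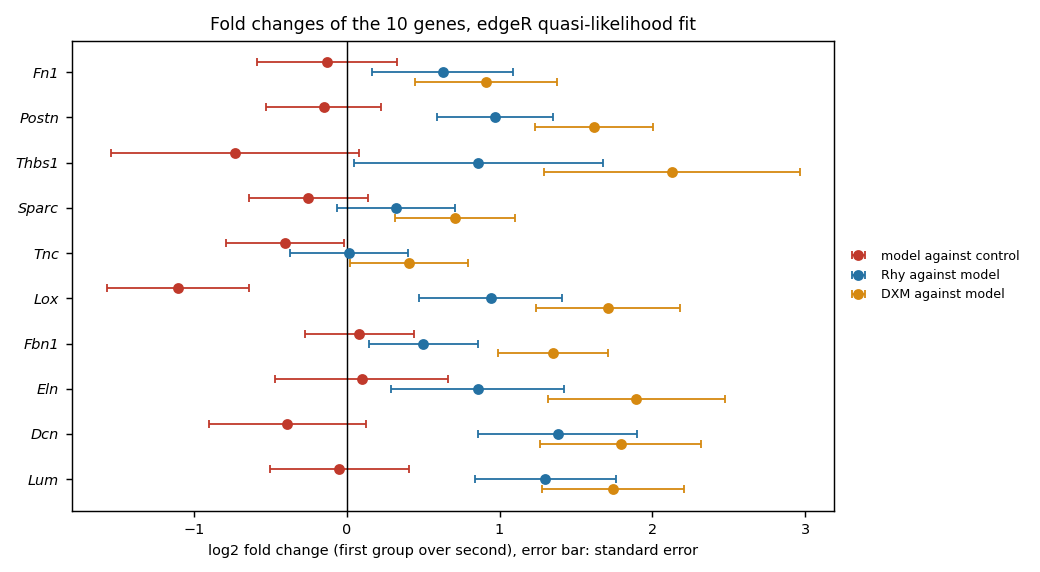
Log2 fold change (horizontal axis) of each of the 10 genes for model against control, Rhy against model and DXM against model, with the standard error as the error bar, from the edgeR fit on all 12 libraries. The DXM values range from 0.41 for Tnc to 2.13 for Thbs1 and lie to the right of the Rhy values for every gene, and the model against control values lie near or below 0.

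The order of the group means was model, control, Rhy, DXM for Fn1, Postn, Thbs1, Sparc, Dcn and Lum. For Tnc and Lox it was model, Rhy, control, DXM, and for Fbn1 and Eln it was control, model, Rhy, DXM. Neighbours in these orders overlapped in their libraries for every gene except model and Rhy for Fbn1. DXM was highest for all 10 genes, but its difference from the group next below was smaller than the larger SD of the pair for 9 genes, Lox being the exception.

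By library, DXM 3 was the highest of the 12 for 7 of the 10 genes and DXM 1 for the other 3, Lox, Fbn1 and Eln. Rhy 1 was the lowest for 4 genes, Fn1, Sparc, Eln and Dcn. Averaged over the 10 genes as standardized log2 CPM, DXM 3 was 1.73 SD units above the mean of the 12 libraries, Rhy 3 was 1.00 and DXM 1 was 0.85 above it, and Rhy 1 was at -1.12. DXM 2, at 0.10, was the lowest of the DXM libraries, and the 3 model libraries lay between -0.76 and -0.56.

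**Figure D3:**
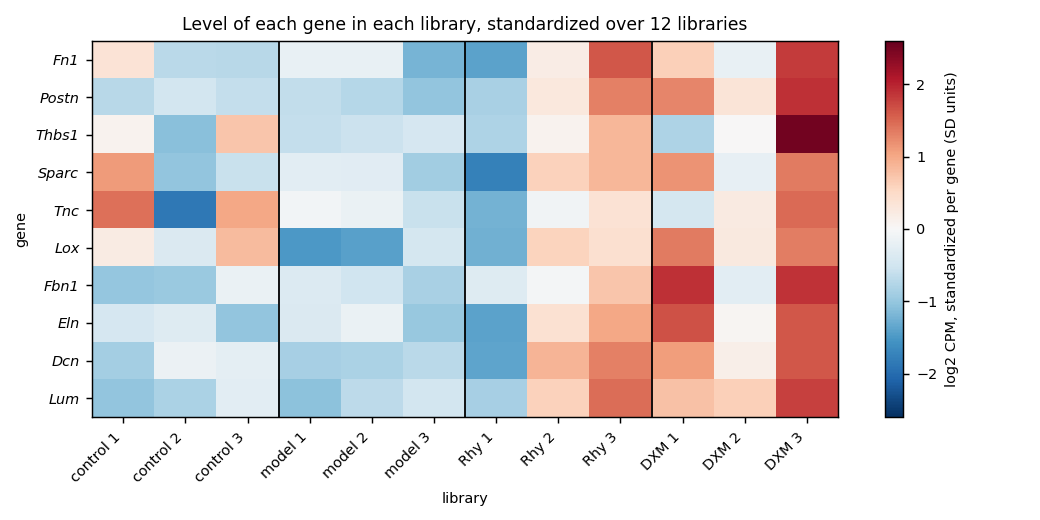
Log2 CPM of each gene (rows) in each library (columns, grouped by treatment), standardized per gene over the 12 libraries to mean 0 and SD 1, with the colour scale in SD units. The Rhy 3, DXM 1 and DXM 3 columns are mostly red, the Rhy 1 column is blue for all 10 genes, and Tnc departs from the others in the control columns.

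The 10 genes moved with each other to different degrees. Over the 12 libraries the Pearson r of log2 CPM between pairs of them ranged from 0.302 to 0.945 with a median of 0.719 over 45 pairs, as a description of libraries that share their preparation and groups. The highest pairs were Postn with Dcn at 0.945, Dcn with Lum at 0.940 and Postn with Lum at 0.940. Postn had the highest median r with the other 9 genes, 0.868, and Tnc the lowest, 0.386, with Thbs1 next at 0.612. Outside the 10 genes, those most like their mean over the 12 libraries were Crispld2 (r = 0.981), Wwtr1 (0.979), Ccdc80 (0.975), Lhfp (0.970), Vcan (0.969), Ackr3 (0.964), Heg1 (0.963), Plcb4 (0.962), Pcdh7 (0.960) and Col3a1 (0.959), among 16894 genes ranked. Vcan encodes the large proteoglycan versican and Col3a1 the fibrillar type III collagen. With model 1 and model 2 averaged, 9 of these were again in the top 10.

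Single genes had different nearest neighbours. Thbs1 was most like Nr4a1, an immediate early nuclear receptor gene (r = 0.936), and Tnc was most like Nupr1 (0.917), a stress-response gene. Fn1 was nearest to Itga8 (0.973), which encodes an integrin subunit that binds fibronectin, and Dcn to Col14a1 (0.973), a fibril-associated collagen. Postn and Lum shared the transcription factor gene Zeb2 (0.972 and 0.957). The closest genes were Ecm1 for Sparc (0.971), Mrc2 for Lox (0.943), Ppp1r3c for Fbn1 (0.952) and Rspo3 for Eln (0.975).

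Other genes of elastic fibre assembly (20 listed, 20 tested) stood mostly on the same side as Eln and Fbn1 for DXM and Rhy against model. For DXM against model 19 of 20 were higher, 11 with an unadjusted p under 0.05 and 12 without overlap, and their median log2 fold change was 1.02. Over all genes, 48.5% were higher in this comparison, 4.89% at that p and 10.4% without overlap. These shares are the background of every list described here for DXM against model. For Rhy against model 48.3% of all genes were higher, 1.74% at that p, and 3.72% had that p in either direction. For model against control 49.3% of all genes were lower, 4.51% at that p. Mfap5, a microfibril-associated glycoprotein gene, was between 0.552 and 1.85 CPM in the model libraries and at 23.5, 3.13 and 17.98 CPM in the DXM libraries, with a log2 fold change of 3.82 ± 0.99 (adjusted p = 0.622). Loxl1, a lysyl oxidase relative that acts on elastin, was at 11.4, 10.98 and 6.61 CPM in the model and 43.3, 13.5 and 48.7 CPM in the DXM libraries (1.86 ± 0.56). Emilin2 was at 1.495 ± 0.64 and Fbln1, which encodes the elastic fibre protein fibulin-1, at 1.28 ± 0.31. For Rhy against model 15 of 20 were higher, with Mfap5 at 2.89 ± 0.96 and Fbln1 at 0.77 ± 0.30 higher and Fbn2, a second fibrillin gene, at -0.98 ± 0.39, each at an unadjusted p under 0.05. Without overlap, 1 of the 20, Fbln1, was higher in Rhy mice, where 5.51% of all genes were. The genes lower without overlap numbered 3, Emilin1, Fbn2 and Ltbp2, and the share of all genes for this is not reported here. For model against control 16 of 20 were lower, at a median of -0.33, where Eln and Fbn1 were at 0.10 and 0.08, and 0 had an unadjusted p under 0.05. None of the 20 passed an adjusted p of 0.05 by edgeR in these comparisons.

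Other matricellular genes (20 listed, 19 tested) included 16 that were higher in DXM than in model mice, 6 of them with an unadjusted p under 0.05, at a median of 0.80. Ccn1, an immediate early matricellular gene, was the largest at 2.58 ± 0.60, from 6.89, 6.80 and 9.77 CPM in the model to 22.9, 28.0 and 89.3 CPM in the DXM libraries (adjusted p = 0.622). Spon2 followed at 2.02 ± 0.58, Ccn2 at 1.70 ± 0.59 and the tenascin gene Tnxb at 1.36 ± 0.31. Ccn1 was also the 1 gene of this list with an unadjusted p under 0.05 for model against control, where it was lower at -1.71 ± 0.59 (adjusted p = 0.479). For Rhy against model 13 of 19 were higher and 0 had an unadjusted p under 0.05.

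Among other small leucine-rich proteoglycan genes (12 listed, 9 tested), 8 were higher in DXM than in model mice, 5 with an unadjusted p under 0.05, at a median of 0.88. Ogn, which encodes osteoglycin, was at 41.8, 39.3 and 50.9 CPM in the model, 60.3, 82.2 and 85.8 CPM in the Rhy and 92.7, 73.8 and 141 CPM in the DXM libraries. Ogn was therefore above the model range in every Rhy and DXM library, Rhy 1 included, with log2 fold changes of 0.79 ± 0.24 (adjusted p = 1.00) and 1.22 ± 0.24 (adjusted p = 0.622). Podn was at 1.41 ± 0.59, Ecm2 at 0.97 ± 0.40 and Aspn at 0.91 ± 0.39 for DXM against model.

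Basement membrane glycoprotein genes (14 tested) were split. For DXM against model 10 were higher and 4 were lower, at a median of 0.73. Lama2, the laminin chain of muscle and mesenchyme, was at 1.88 ± 0.51, Nid2 at 1.28 ± 0.42, Lamb2 at 0.91 ± 0.26 and the perlecan gene Hspg2 at 0.82 ± 0.27. For model against control the epithelial laminin genes Lama3 (-1.06 ± 0.45) and Lamb3 (-0.83 ± 0.33) were lower at an unadjusted p under 0.05. In Rhy mice Nid2 alone reached that level, at 1.05 ± 0.42.

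Receptors that bind these proteins (16 tested) were higher in DXM than in model mice for 15 genes, with 3 at an unadjusted p under 0.05 and a median of 0.26. They were Stab1, a scavenger receptor gene that takes up SPARC (1.89 ± 0.56), and the integrin genes Itga8 (1.09 ± 0.49) and Itga9 (0.91 ± 0.35). For model against control Itgb5 (-0.70 ± 0.23) and Itgb6 (-0.67 ± 0.30) were lower. Of the TGF-beta ligands, receptors and activators (14 listed, 13 tested), 10 were higher in DXM mice, 4 with an unadjusted p under 0.05, Tgfb3 (1.88 ± 0.62), Bmp1 (0.95 ± 0.33), Pcolce (0.95 ± 0.43) and Tgfbr3 (0.87 ± 0.25). Tgfb3 was also at 1.53 ± 0.62 for Rhy against model, from 3.86, 3.64 and 4.53 CPM in the model to 3.85, 17.1 and 13.8 CPM in the Rhy libraries. For model against control Bmp1 (-0.72 ± 0.33), Smad7 (-0.63 ± 0.28) and Smad3 (-0.45 ± 0.19) were lower. None of these genes passed an adjusted p of 0.05 by edgeR.

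Markers of the cells that make these proteins stood mostly on the same side as the 10 genes for Rhy and DXM against model. All 10 fibroblast markers were higher in DXM than in model mice, 7 with an unadjusted p under 0.05, at a median of 1.12, and 8 of 10 were higher in Rhy than in model mice. The summed level of the fibroblast markers ranged from 495 to 1006 CPM in the control, 477 to 554 in the model, 361 to 1425 in the Rhy and 812 to 1655 in the DXM libraries, with the lowest value in Rhy 1 and the highest in DXM 3, as for the 10 genes. Most of this sum came from Col1a1, Col1a2, Col3a1 and Col6a3, which are matrix genes themselves. Pi16, a marker of adventitial fibroblasts, was between 0.110 and 0.834 CPM in the model libraries, at 0.257, 5.16 and 15.2 CPM in the Rhy libraries and at 16.1, 2.65 and 21.7 CPM in the DXM libraries. Col1a1 was at 84.2, 79.8 and 58.9 CPM in the model and 169.8, 99.6 and 205 CPM in the DXM libraries.

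The 12 smooth muscle markers summed to 4492 to 8795 CPM in the control, 5338 to 6772 in the model, 8409.6 to 9188 in the Rhy and 7204 to 12185 CPM in the DXM libraries. All 12 were higher in DXM than in model mice, 6 with an unadjusted p under 0.05, and 11 of 12 were higher in Rhy than in model mice. Between model and control mice, 10 of 12 were higher in the model group, at a median of 0.04, where 9 of the 10 fibroblast markers and 8 of the 10 matrix genes were lower. Rhy 1, the lowest library for the matrix genes, was above every model library in this sum. Endothelial markers summed to 93.7 to 116 CPM in the control, 78.6 to 87.1 in the model, 62.9 to 161 in the Rhy and 92.8 to 211 CPM in the DXM libraries, with all 10 higher for DXM against model. Macrophage markers summed to 254 to 419.9 CPM in the control, 254 to 259.7 in the model, 129 to 454 in the Rhy and 305 to 746 in the DXM libraries, with 9 of 10 higher for DXM against model. Colon epithelial markers stood on the other side for DXM against model, with 10 of 12 lower in DXM mice. For Rhy against model 9 of 12 were higher in Rhy mice, and for model against control 11 of 12 were lower in model mice. Their sums were 27825 to 44288 CPM in the control and 25736 to 33291 in the model libraries. In the Rhy libraries they were 29430.2 to 37162 CPM, and in the DXM libraries 19608 to 33835 CPM. The part of these cell populations in the levels of the 10 genes was not tested.

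Some other sources were near 0. Mesothelial markers summed to 2.40 to 5.82 CPM over all libraries, with Upk3b, Lrrn4 and Wt1 at or near 0 and 3 of 8 tested. Of the platelet markers 2 of 8 were tested, Ppbp and Gp9 were at or near 0, and Pf4, which macrophages can also express, was at 2.58 ± 0.70 for DXM against model. Fat cell markers summed to 249.4 CPM in model 3 but to 29.7 and 31.7 CPM in model 1 and model 2, against 33.6 to 122 CPM in the control, 37.5 to 117 in the Rhy and 48.0 to 80.5 CPM in the DXM libraries. All 7 tested were lower in DXM and in Rhy than in model mice at a median of -1.25 and -1.21. In the sums this direction rested on model 3, and model 1 and model 2 were below every Rhy and DXM library. Markers that define colonic epithelium, smooth muscle and fibroblasts were all above the filter.

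**Figure D4:**
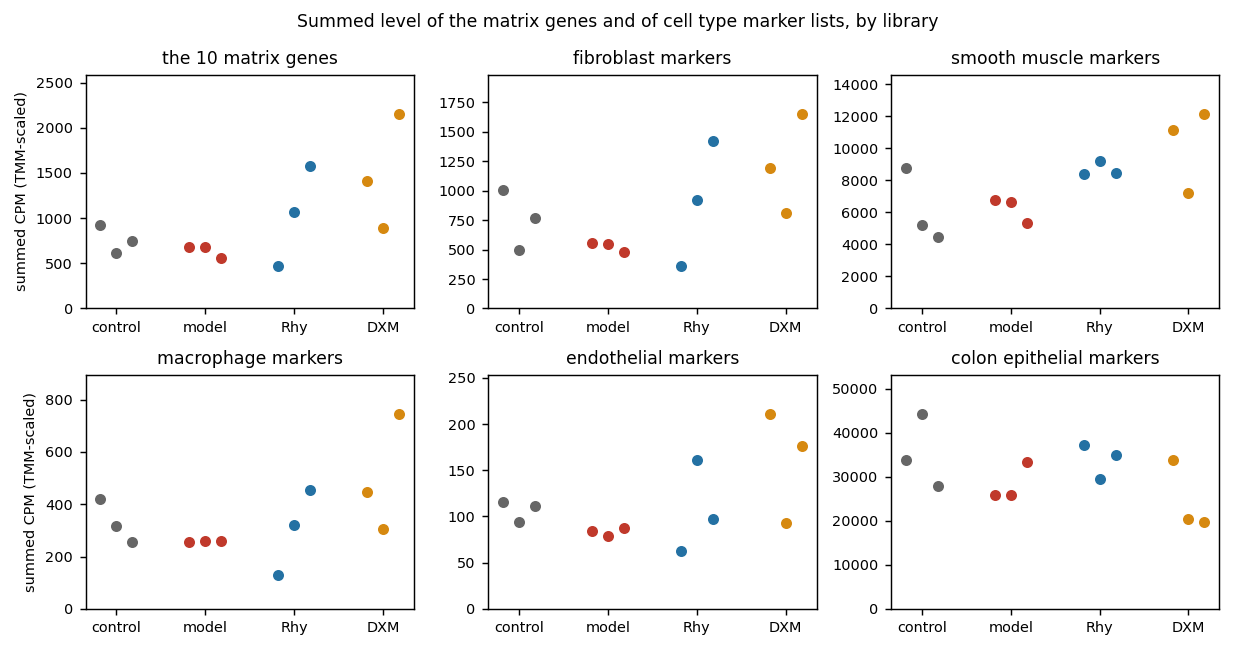
Summed TMM-scaled CPM (vertical axis, linear from 0) of the 10 matrix genes and of 5 marker lists in each library, libraries 1 to 3 from left to right within a group. The matrix genes and the fibroblast markers have the same lowest library, Rhy 1, and the same highest, DXM 3, while the epithelial markers are lowest in DXM 3.

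Opposite-strand genes overlap the exons of 6 of the 10 genes. The shared part was 20.1% of exon bases for Fbn1 and between 0.628% and 3.42% for Fn1, Thbs1, Tnc, Lox and Eln, and Postn, Sparc, Dcn and Lum had none. Because the use of strand in the counting was not given in the sources used here, reads in the shared parts are uncertain.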

How the data were processed

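The series holds 12 mRNA libraries of mouse colon, and the treatment in the sample labels put 3 libraries into each of the 4 groups. Whether model 1 and model 2 came from separate mice was not tested. The authors deposited raw counts of reads per gene, without normalization, and FPKM values, which are levels per gene length. The library sizes implied by the FPKM differ from the total counts, so the FPKM already carry a scaling between libraries. The submitters' processing notes name mm10, HISAT2 2.0.5, featureCounts 1.5.0-p3 and DESeq2 1.16.1 without saying what each did, and the use of strand was not given in the sources used here. Every column of both tables carries the title of a listed sample, and 0 columns are of other samples.

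Counts of all genes that passed filterByExpr of edgeR at its default minimum count of 10 (16904 of 54532) were fitted with edgeR 4.0.16 under R 4.3.3 (TMM scaling, 1 coefficient per group, glmQLFit, two-sided glmQLFTest), with Benjamini-Hochberg adjustment over all genes tested. The study states no test for its RNA-Seq, so all 12 libraries entered 1 fit and shared its estimate of the spread, which 3 libraries alone give poorly. A log2 fold change divided by the square root of its F statistic gave its SE. CPM carry no prior count, and correlations used log2 CPM with a prior count of 2. Exact two-sided permutation tests used the mean log2 CPM. DESeq2 1.42.0 and limma 3.58.1 served as alternatives, beside other scalings, filters, covariates and left-out libraries. The fit was tested on simulated counts for model against control, where edgeR recovered 124 of 200 genes changed 4-fold with 7 false calls, limma on log2(CPM + 1) 124 with 9, and DESeq2 153 with 52.

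The 10 genes and all lists were chosen with earlier results of these data known, and the lists were written from general knowledge. All 10 genes are named, together with at most 4 genes per list and comparison of the largest fold change at an unadjusted p under 0.05, the genes most alike by Pearson r, and markers where a list is given. Coordinates are those of the deposited table, which match GENCODE M21 on GRCm38 for both ends of 9 of the 10 genes and for 1 end of Lox, whose length is 4810 bases in the table and 4778 in the annotation. Promoter windows are from RefSeq. Some results for the gene lists are not reported here.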

Additional observations from a re-analysis of the deposited data

How the results depend on the processing

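Across 880 log2 fold changes of the 10 genes recomputed under alternative settings, 829 kept their direction and their side of the threshold, 15 passed it under DESeq2 alone, and 36 changed sign, 24 of them with 1 library left out. No fold change with an unadjusted p under 0.05 changed sign. DESeq2 on all libraries and on the 2 groups compared put 1 and 6 of the 10 genes past the threshold for DXM against model and 4 and 4 for DXM against control, where edgeR put 0, and the cause was not tested. Limma on log2(FPKM + 1) gave a median of 0.99 for DXM against model and 0.75 for DXM against control, on a scale where the pseudocount shrinks the change of low genes by construction.

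Sign changes outside left-out replicates were of small values except for Lox. For model against control Eln was -0.15 with Hoxb13 as a covariate and -0.0227 with model 1 and model 2 as 1 library, and Lum was 0.00835 in that setting and 0.00711 without the libraries with Hoxb13 under 5 CPM, a setting chosen after seeing the data. For Rhy against control Sparc was -0.0613 with Hoxb13 as a covariate. In that comparison Lox was 0.45 without the libraries low in Hoxb13, where the main fit gave -0.16. For DXM against control Tnc was -0.0330 with RLE size factors, -0.0463 with only the 2 groups compared, -0.11 with Hoxb13 as a covariate, and -0.0331 and -0.0377 by DESeq2 on all libraries and on 2 groups.

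With 1 replicate left out at a time, the log2 fold change for model against control ranged from -0.25 to 0.15 for Fn1, from -0.46 to 0.17 for Sparc, from -0.0204 to 0.30 for Fbn1, from -0.10 to 0.27 for Eln and from -0.23 to 0.18 for Lum. For Rhy against model it ranged from -0.17 to 0.21 for Tnc. For Rhy against control it ranged from -0.11 to 0.86 for Fn1, from -0.43 to 0.66 for Thbs1, from -0.17 to 0.50 for Sparc and from -0.41 to 0.17 for Lox. For DXM against control it ranged from -0.49 to 1.93 for Thbs1 and from -0.35 to 0.31 for Tnc. The median over the 10 genes ranged from 0.29 (without Rhy 3) to 1.24 for Rhy against model, from 0.10 (without Rhy 3) to 0.80 for Rhy against control and from 0.76 (without DXM 3) to 1.72 for DXM against control.

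No clear pairing of the samples by replicate number was seen: same-numbered samples of 2 groups had r over 0.1 in their deviations from the group means in 6 of 18 pairs, from -0.31 to 0.36. With 3 libraries per group these deviations cannot exclude pairing. With replicate number as a block, Tnc was -0.0145 for Rhy against model, and 6 of the 10 genes had an unadjusted p under 0.05 for DXM against model, where the fit without the block gave 7.

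Over all genes, those at an unadjusted p under 0.05 numbered 1626 for model against control, 628 for Rhy against model and 1300 for DXM against model, and 845, 270 and 720 with model 1 and model 2 as 1 library. Without the libraries low in Hoxb13 they numbered 2655, 1419 and 1550, and DXM against model gave 2579 with only the 2 groups compared. At an adjusted p, DESeq2 on 2 groups called 206, 53 and 646 genes, where edgeR called 1, 0 and 2 on the same 2 groups and 0 in each comparison on all libraries. Upper-quartile scaling moved the median log2 fold change of all genes for DXM against control from 0.06 to 0.15. Depth limits Lox most, at 17 to 125 reads per library.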
